A study of Homo sapiens with 179 samples.

Results

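A set of 34 genes of the mitotic spindle and its checkpoint was described by RNA-seq in H1, an established line of human embryonic stem cells. They were chosen by gene symbol, though with earlier results of these data known, and all 34 were among the 19084 genes of the deposited tables. The series held 179 libraries, all from H1 cells grown on Matrigel in E8, a defined medium. The groups were H1p43 (n = 3) and H1p16 (n = 3), made with the TruSeq kit, and Lanes 1, 2, 3 and 4 (n = 95, 48, 24 and 6), made with LM-Seq, a low-cost protocol that primes reverse transcription with random hexamers. No genotype or treatment sets any of these groups apart in the labels, and the sources used here do not explain the letter p. All samples are 1 cell line. The labels do not tie replicates to separate cultures, and the spread that p-values here are based on may be technical.

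Mitosis begins when CDK1 bound to cyclin B becomes active, after which duplicated chromosomes condense and their kinetochores attach to spindle microtubules. The spindle checkpoint holds the anaphase-promoting complex (APC/C) inactive until every kinetochore is attached, and the complex then triggers the destruction of cyclin B and securin so that sister chromatids separate. Most of the genes involved are transcribed in G2 and mitosis, and human embryonic stem cells divide fast, with a short G1 phase. In bulk RNA, more cells in G2 or mitosis and more RNA per such cell cannot be told apart.

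The promoters of many mitotic genes hold CCAAT boxes, bound by NF-Y, and a cell cycle homology region (CHR), bound by complexes that repress them in resting cells and activate them in G2. Promoter sequences from RefSeq, of 300 bases around the gene start, were found for 30 of the 34 genes, and not for AURKA, BIRC5, TTK and UBE2C. The CHR letters TTTGAA, on either strand, stood in 21 of these 30 promoters (70%), against 15.4% of all 27305 promoters in the table. The letters CCAAT, on either strand, stood in 23 of 30 (76.7%), against 35.7% of all promoters, and both motifs in 17 of 30 (56.7%), against 6.08%. In none of the 30 promoters did matches of the 2 motifs overlap. The promoters below belong to the 5 genes with the highest mean correlation with the other mitotic genes over the Lane 1 libraries. Even these means were low, at 0.0978 for CENPE, 0.0891 for NDC80, 0.0848 for CENPF, 0.0826 for TOP2A and 0.0725 for DLGAP5. Matches to either motif are in capitals, and sequences read 5′ to 3′ on the gene's strand of GRCh38.p14. CENPE lies at chr4:103198294-103198593 (minus), NDC80 at chr18:2571307-2571606 (plus), CENPF at chr1:214602945-214603244 (plus), TOP2A at chr17:40417847-40418146 (minus) and DLGAP5 at chr14:55191536-55191835 (minus).
CENPE: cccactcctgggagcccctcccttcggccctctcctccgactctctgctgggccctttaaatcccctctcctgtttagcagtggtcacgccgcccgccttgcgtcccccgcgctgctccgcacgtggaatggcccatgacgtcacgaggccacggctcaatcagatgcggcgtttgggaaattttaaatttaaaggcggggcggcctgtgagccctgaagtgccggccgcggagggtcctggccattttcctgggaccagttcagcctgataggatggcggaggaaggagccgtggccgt
NDC80: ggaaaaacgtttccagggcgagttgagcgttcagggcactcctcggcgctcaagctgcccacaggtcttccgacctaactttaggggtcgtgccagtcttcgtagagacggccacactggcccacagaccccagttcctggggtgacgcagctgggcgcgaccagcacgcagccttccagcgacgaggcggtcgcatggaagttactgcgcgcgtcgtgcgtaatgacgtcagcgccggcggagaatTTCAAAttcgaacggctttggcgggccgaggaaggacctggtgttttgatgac
CENPF: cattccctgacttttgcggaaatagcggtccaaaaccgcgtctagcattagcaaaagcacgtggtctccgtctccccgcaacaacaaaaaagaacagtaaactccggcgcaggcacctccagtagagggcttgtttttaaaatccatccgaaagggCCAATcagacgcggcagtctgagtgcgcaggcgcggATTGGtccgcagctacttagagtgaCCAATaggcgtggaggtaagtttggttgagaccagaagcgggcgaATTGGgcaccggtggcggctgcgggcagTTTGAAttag
TOP2A: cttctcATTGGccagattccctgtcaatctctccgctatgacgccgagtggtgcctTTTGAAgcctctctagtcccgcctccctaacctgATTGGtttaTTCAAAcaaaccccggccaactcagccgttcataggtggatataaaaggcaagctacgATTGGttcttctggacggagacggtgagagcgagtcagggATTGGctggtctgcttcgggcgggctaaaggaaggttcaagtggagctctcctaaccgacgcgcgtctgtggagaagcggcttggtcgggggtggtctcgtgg
DLGAP5: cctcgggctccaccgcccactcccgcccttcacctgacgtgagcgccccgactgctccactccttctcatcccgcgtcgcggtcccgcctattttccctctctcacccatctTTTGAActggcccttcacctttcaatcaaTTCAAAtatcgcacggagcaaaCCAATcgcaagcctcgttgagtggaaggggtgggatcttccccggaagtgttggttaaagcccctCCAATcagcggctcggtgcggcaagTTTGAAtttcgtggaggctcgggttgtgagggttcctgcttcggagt
DLGAP5 had 3 CHR and 2 CCAAT matches, TOP2A 2 and 4, and CENPF 1 and 4. NDC80 had 1 CHR match and no CCAAT match, and CENPE had neither in this window. A match is a run of letters and not a binding site measured in these cells.

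Expected counts per library, as RSEM estimates them, ranged from 29018110 to 35852620 in H1p43 and from 23680509 to 30628671 in H1p16. Lane 1 libraries held 1040667 to 1539268, Lane 2 libraries 2005728 to 2739067, Lane 3 libraries 4028604 to 4918554, and Lane 4 libraries 15780048 to 16583038. All 10 pluripotency markers were present at 1 TPM (a transcript's share of its library, scaled per length and to a fixed total) or more on average in every group, with POU5F1 at 3070.5 ± 13.1 TPM in H1p43, 2101 ± 69.8 TPM in Lane 4 and 3191 ± 96.4 TPM in H1p16 (SD). Of 8 stromal markers, DCN and LUM were listed at 0 in every library, and 3 averaged below 1 TPM in each group. The 8 together summed to 791.5 to 820.7 TPM in H1p43, 472.9 to 528.1 TPM in Lane 4 and 768.4 to 806.7 TPM in H1p16. Of 9 mesendoderm markers, 8 averaged below 1 TPM in each group. Each LM-Seq library carries a number that recurs across lanes. The library Lane1_38846 and its namesake in Lane 2 stood apart: the median correlation with the other libraries of the lane was 0.9474 and 0.9527, against lane medians of 0.9774 and 0.9857. Lane1_38859 and its namesake were next, at 0.9566 and 0.9674.

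All 34 genes were expressed in every group. In H1p43 the 3 most abundant were PTTG1, which encodes securin, UBE2C, an APC/C ubiquitin-conjugating enzyme, and CDC20, an APC/C activator, with 416.2, 401.3 and 312.8 TPM on average. The same 3 genes led in H1p16, with 342.2 TPM for PTTG1, 429.9 TPM for UBE2C and 292.6 TPM for CDC20. The 3 least abundant genes were, in H1p16, CENPA, CENPE and ASPM, at 19.8, 24.9 and 25.7 TPM. In Lane 4 the order differed: UBE2C (411.1 TPM) and the spindle protein gene DLGAP5 (406.4 TPM) came first. Together the 34 genes took 0.443 ± 0.0023% of all TPM in H1p43, 0.453 ± 0.005% in Lane 4 and 0.411 ± 0.0044% in H1p16 (SD), and between 0.414% and 0.479% in the 95 libraries of Lane 1.

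The first comparison asked how mitotic genes differed between H1p43 and H1p16, both made with TruSeq. By edgeR's quasi-likelihood test on expected counts, 14 of the 34 genes were higher and 15 were lower in H1p43 at an adjusted p below 0.05, and 5 were not called. Over all 14574 genes tested, 71.8% were called, 36.4% higher and 35.4% lower, so both counts lay near the background of all genes. Their log2 fold changes were small, with a median size of 0.15 against 0.28 over all genes, and a range of -0.35 to 0.71. The direction depended on the scale. DESeq2 called 9 higher, without PLK1, BIRC5, CENPE, NUF2 and TOP2A, and edgeR called 9 higher without H1p16 replicate 2 and 9 without H1p43 replicate 2. Over all genes, these fits called 9309, 9840 and 9984 in either direction, against 10460 in the main fit. Tested by limma on log2(TPM + 1), 19 were higher and 6 lower, and 64.2% of all calls were higher, against 50.7% with counts; the median log2 fold change of all genes was 0.09 on that scale and 0.01 with counts. On both scales, 14 genes were called higher and 6 lower, against 36.3% and 26.2% of the 13006 genes tested on both. The TPM ranges of the 2 groups did not overlap for 20 genes that were higher and 8 that were lower in H1p43; over all genes tested, 73.7% did not overlap, 47.9% higher and 25.9% lower.

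**Figure D1:**
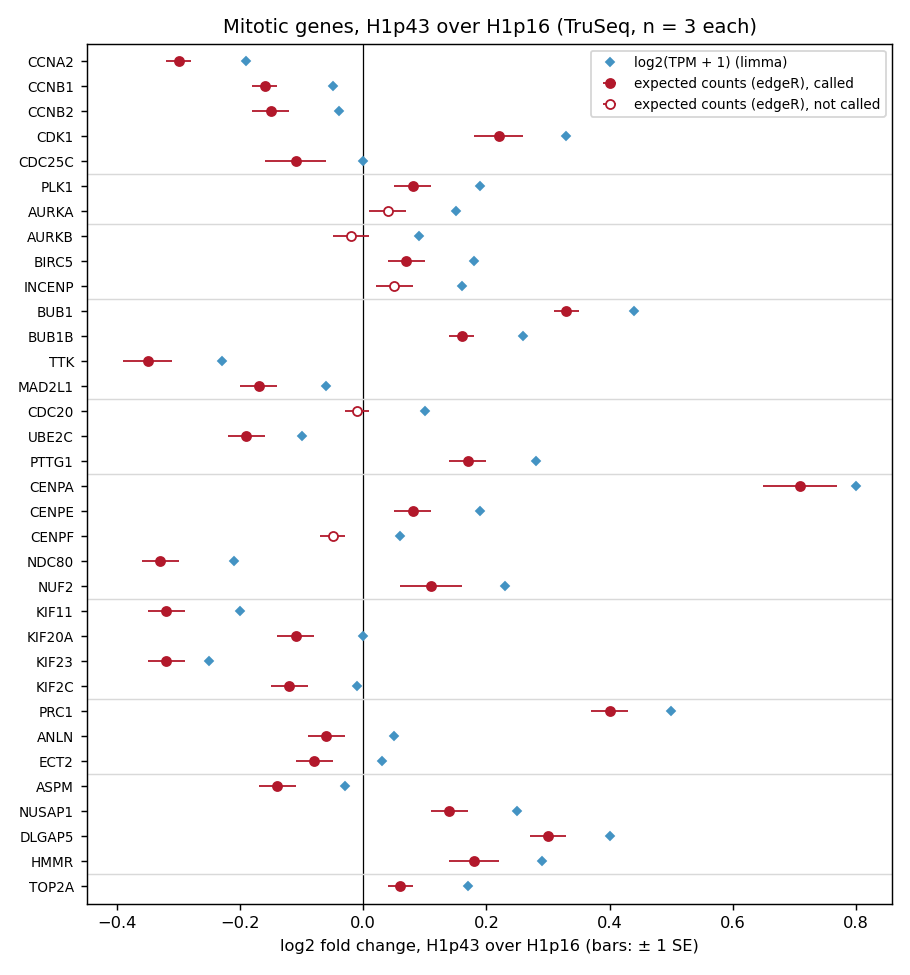
Log2 fold change of each mitotic gene, H1p43 over H1p16 (horizontal axis), grouped by role from cyclins at the top to TOP2A at the bottom. Circles with bars are edgeR estimates from expected counts ± 1 SE, filled where called; diamonds are limma estimates on log2(TPM + 1), which lie to the right of the circles for every gene. CENPA is the farthest right, at 0.71 with counts.

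The largest increase was in CENPA, the histone H3 variant that marks centromeres. CENPA had 36.6, 33.3 and 35.2 TPM in the H1p43 libraries, against 18.4, 19.3 and 21.8 TPM in the H1p16 libraries. The groups did not overlap, and the log2 fold change was 0.71 ± 0.06 (SE; edgeR adjusted p = 1.4e-08). PRC1, which bundles microtubules of the spindle midzone, had 73.8, 74.3 and 75.1 TPM in H1p43 and 52, 51.4 and 53.3 TPM in H1p16. The difference of 0.40 ± 0.03 on the log2 scale (edgeR adjusted p = 8.4e-10) far exceeded the spread within each group. The checkpoint kinase gene BUB1 had 148.2, 146.9 and 150.5 TPM in H1p43 and averaged 109.5 ± 1.97 TPM in H1p16 (SD), a log2 fold change of 0.33 ± 0.02 (edgeR adjusted p = 7.8e-10). DLGAP5, whose product stabilizes spindle fibres at kinetochores, had 167.6, 174.4 and 176.8 TPM in H1p43 and 128.6, 127.5 and 135.8 TPM in H1p16 (log2 fold change 0.30 ± 0.03). CDK1, the kinase that drives entry into mitosis, averaged 161.2 ± 6.28 TPM in H1p43 and 128.1 ± 7.16 TPM in H1p16 (0.22 ± 0.04). All 5 of these genes rose on both scales.

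The genes that fell on both scales were CCNA2, TTK, UBE2C, NDC80, KIF11 and KIF23. TTK, the kinase that starts checkpoint signalling at kinetochores, had 66.9, 68.7 and 68.3 TPM in H1p43, against 75.4, 80.2 and 84.8 TPM in H1p16. Its log2 fold change of -0.35 ± 0.04 was the most negative among the mitotic genes (edgeR adjusted p = 1.2e-07). NDC80, a microtubule-binding kinetochore subunit, fell by 0.33 ± 0.03 on the log2 scale, with 49.5, 50.8 and 49 TPM in H1p43 and 56.4, 58.5 and 58.7 TPM in H1p16. NUF2, its partner in the same complex, had a log2 fold change of 0.11 ± 0.05, with 36.7 ± 0.88 TPM in H1p43 and 31.2 ± 1.51 TPM in H1p16 (SD). Its call was lost with DESeq2 (adjusted p = 0.19) and in 4 of 6 edgeR fits that left out 1 library. The motor genes KIF11, needed to separate spindle poles, and KIF23, needed for cytokinesis, each had a log2 fold change of -0.32 ± 0.03. KIF11 averaged 53.3 TPM in H1p43 and 61.6 TPM in H1p16, and KIF23 averaged 70.5 TPM in H1p43 and 84 TPM in H1p16. CCNA2, the cyclin of S phase and G2, averaged 114.1 ± 1.14 TPM in H1p43 and 130.5 ± 1.74 TPM in H1p16 (-0.30 ± 0.02).

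Some partners in the same pathway differed in direction with counts. Within the cyclins, CCNB1 and CCNB2 had log2 fold changes of -0.16 and -0.15 with counts, both called, beside the increase of their kinase CDK1. CDC25C, the phosphatase that activates CDK1, was called at -0.11 with counts, but averaged 29.7 ± 0.949 TPM in H1p43 and 29.6 ± 1.33 TPM in H1p16, with overlapping ranges. Among checkpoint genes, BUB1B rose (0.16 ± 0.02) beside BUB1, and MAD2L1, whose product inhibits CDC20, was called at -0.17 ± 0.03 with counts only. Of the chromosomal passenger complex, which corrects faulty attachments, BIRC5 (survivin), the kinase AURKB and the scaffold INCENP were at 0.07, -0.02 and 0.05 with counts, and only BIRC5 was called. BIRC5 lost its call with DESeq2 (adjusted p = 0.12) and in 4 of 6 edgeR fits that left out 1 library. On log2(TPM + 1) all 3 were called higher by limma, at 0.18, 0.09 and 0.16. AURKA, the centrosome kinase, and CDC20 were also not called with counts, at 0.04 and -0.01, and CENPF missed the threshold at -0.05. Of these, AURKB, CDC20 and CENPF turned to positive values on the log2(TPM + 1) scale, as did KIF20A, ANLN and ECT2, which were called lower with counts (-0.11, -0.06 and -0.08). KIF2C and ASPM were also called lower with counts, at -0.12 and -0.14, and PLK1 (0.08), CENPE (0.08), NUSAP1 (0.14), HMMR (0.18) and TOP2A (0.06) were called higher on both scales. Of these, PLK1, CENPE and TOP2A lost the call with DESeq2 (adjusted p = 0.11, 0.14 and 0.12) and each in 4 of 6 edgeR fits that left out 1 library. ANLN lost it in 4 such fits, ECT2 in 5 and CDC25C in 3, CDC25C also with DESeq2 (adjusted p = 0.087). PTTG1 rose by 0.17 ± 0.03, but near-identical copies of this gene exist in the genome, and the division of shared reads makes its value uncertain.

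Outside the 34 genes, the lists of APC/C, condensin and cohesin, mitotic transcription and replication genes held more calls lower than higher on either scale. Among 60 further mitotic genes, 14 were higher and 29 lower in H1p43 with counts, with a median log2 fold change of -0.09, but 23 were higher and 18 lower on log2(TPM + 1), with a median of 0.03. SKA3, part of a kinetochore complex that tracks microtubules, averaged 45.5 ± 1.27 TPM in H1p43 and 71.2 ± 1.07 TPM in H1p16 (-0.76 ± 0.03), ZWINT, a kinetochore linker, was at -0.59 and CDCA5, which protects cohesion, at -0.36. MKI67, the proliferation marker, was not called, at -0.04 ± 0.02 with counts and with means of 43.6 TPM in H1p43 and 42 TPM in H1p16. Of 16 APC/C genes, 4 were higher and 10 lower with counts (median -0.16), and 5 higher and 6 lower on log2(TPM + 1), with CDC16 at -0.51, ANAPC7 at -0.27 and ANAPC2 at -0.32. Of 17 condensin and cohesin genes, 4 were higher and 13 lower (median -0.22; 4 and 11 on log2(TPM + 1)), with the cohesin subunits STAG1 at -0.88 and STAG2 at -0.58, and the condensin subunit SMC2 at -0.60. The median log2 fold change over all genes was 0.01 with counts and 0.09 on log2(TPM + 1). Over all genes tested with counts, 36.4% were called higher and 35.4% lower. On log2(TPM + 1), limma called 9555 of 13029 genes, and 64.2% of these calls were higher.

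Genes that control mitotic entry and transcription differed among themselves. The counts below stand beside 36.4% of all genes called higher and 35.4% called lower with counts. On log2(TPM + 1), 64.2% of all calls were higher. Of 14 genes of mitotic entry, its inhibitors and phosphatases, 5 were higher and 7 lower with counts, and 6 higher and 3 lower on log2(TPM + 1). CDC25B averaged 29.1 ± 0.175 TPM in H1p43 and 15.6 ± 1.13 TPM in H1p16 (0.79 ± 0.04), while CDC25A (-0.63) and the checkpoint kinase gene CHEK1 (-0.49) fell. The CDK1-inhibiting kinases WEE1 (-0.10) and PKMYT1 (-0.17) were called lower with counts, though WEE1 averaged 67.5 TPM in H1p43 and 66.8 TPM in H1p16. Of 18 genes for factors that act on G2 and mitotic promoters, 2 were higher and 14 lower (median -0.22; 2 and 9 on log2(TPM + 1)). MYBL2 was at -0.25 ± 0.03 and FOXM1 at -0.13 ± 0.03, and the NF-Y subunit genes NFYB and NFYC at -0.62 and -0.52, while RBL2, a pocket protein of the repressing complex, was at 0.79 ± 0.04. Of 26 genes of G1/S and replication, 0 were called higher and 23 were called lower by edgeR (median -0.35), and 1 higher and 19 lower by limma on log2(TPM + 1). RRM2, a subunit of ribonucleotide reductase, averaged 105.4 ± 0.327 TPM in H1p43 and 202.7 ± 1.21 TPM in H1p16 (-1.05 ± 0.02), and the helicase subunits MCM5 and MCM7 were at -0.89 and -0.50. Beside these values, the summed level of the 10 pluripotency markers was 7098 to 7129.8 TPM in H1p43 and 8776 to 8976 TPM in H1p16. That of the 9 neuroectoderm markers was 354.7 to 359.5 TPM in H1p43 and 281.3 to 298.7 TPM in H1p16. Their part in the differences of mitotic genes was not tested.

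The second comparison set LM-Seq (Lane 4, the LM-Seq lane nearest in depth) against the 6 TruSeq libraries. By the same test, 16 of the 34 mitotic genes were higher and 9 lower in Lane 4, and 9 were not called. Over all 13827 genes tested, 71.3% were called, 34.3% higher and 36.9% lower. The differences were larger than between H1p43 and H1p16: the median size of log2 fold change was 0.38 among mitotic genes and 0.59 over all genes, and mitotic genes ranged from -1.38 to 1.46. The TPM ranges did not overlap for 14 genes that were higher and 8 that were lower in Lane 4; over all genes tested, 53.9% did not overlap, 26.6% higher and 27.2% lower. Protocol and any difference between the cultures behind the libraries cannot be told apart. Tested against the H1p43 and the H1p16 libraries separately, 15 genes were higher and 9 lower in both tests, against 29.3% and 27.8% of the 13752 genes in both.

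**Figure D2:**
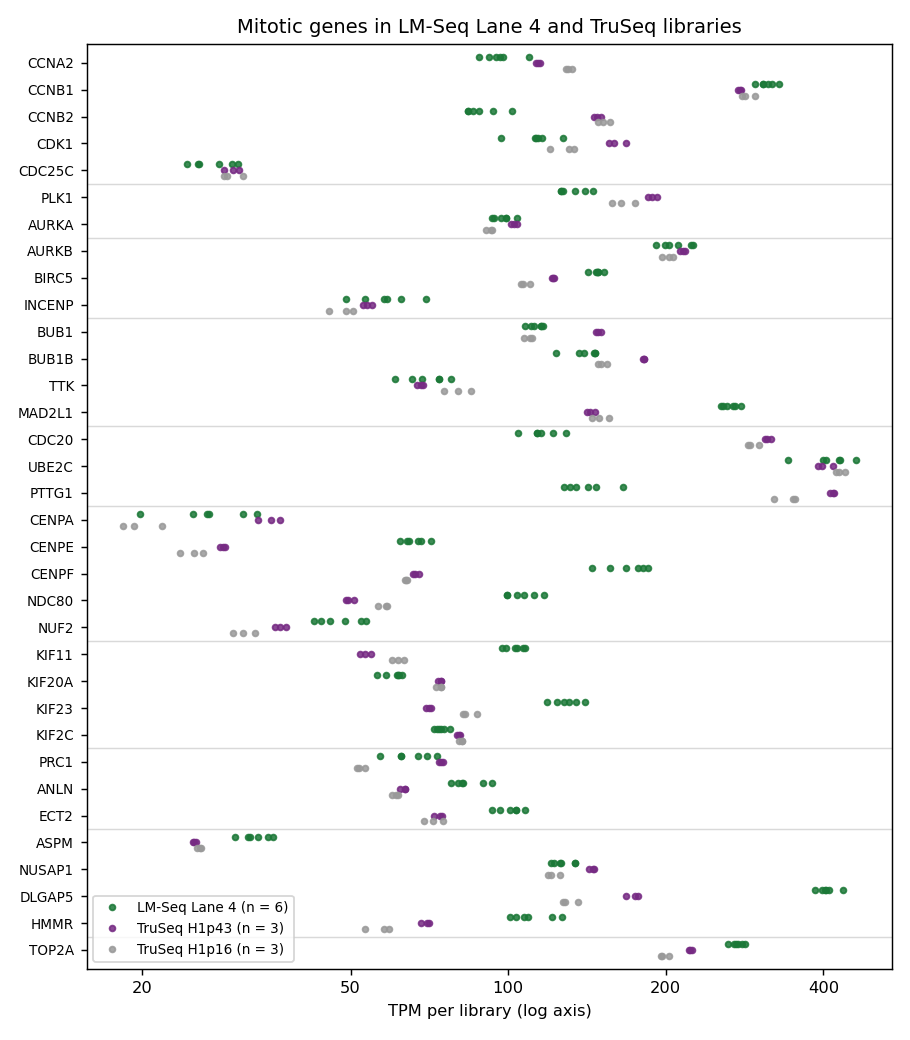
TPM of each mitotic gene in each library (horizontal log axis), with LM-Seq Lane 4 (n = 6) above TruSeq H1p43 (n = 3) and H1p16 (n = 3) in each row. Lane 4 lies right of both TruSeq groups for DLGAP5, CENPF and CENPE, and left of both for CDC20, PTTG1 and CCNB2.

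DLGAP5 had the largest increase, with 402.7, 405.3, 435.6, 398.2, 410.7 and 385.9 TPM in the Lane 4 libraries, against 127.5 to 176.8 TPM in the TruSeq libraries. Every Lane 4 library exceeded every TruSeq library, with a log2 fold change of 1.46 ± 0.07 (SE; edgeR adjusted p = 2.2e-11). CENPF, a large kinetochore and nuclear matrix protein, had 144.9, 156.2, 181.1, 167.9, 177.0 and 185.3 TPM in Lane 4, 65.9, 66.3 and 67.5 TPM in H1p43 and 63.5, 63.8 and 64.2 TPM in H1p16. Its log2 fold change was 1.41 ± 0.06 (edgeR adjusted p = 9.5e-12). CENPE, the kinesin that moves chromosomes to the spindle equator, had between 62.1 and 71.2 TPM in Lane 4 and between 23.6 and 28.8 TPM in TruSeq libraries (1.35 ± 0.05). Between H1p43 and H1p16, the log2 fold changes of these 3 genes had been 0.30, -0.05 and 0.08.

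The largest decreases were in CDC20 and PTTG1. CDC20 had 121.6, 115.3, 104.6, 113.3, 129.2 and 113.6 TPM in Lane 4, against 308.8, 311.9 and 317.7 TPM in H1p43 and 301.1, 289.5 and 287.2 TPM in H1p16. The groups lay far apart, at a log2 fold change of -1.34 ± 0.05 (edgeR adjusted p = 2.6e-12). PTTG1 averaged 141.4 ± 13.8 TPM in Lane 4 and 379.2 ± 42 TPM in TruSeq libraries (-1.38 ± 0.07), with the same doubt over its copies. CDC20 and PTTG1, the activator of the APC/C and one of its main targets, thus ranked among the 3 most abundant mitotic genes by TruSeq and not by Lane 4.

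Genes of the same complex differed between protocols by unlike amounts. The Ndc80 complex genes NDC80 and NUF2 rose by 1.02 ± 0.08 and 0.58 ± 0.07. The checkpoint gene MAD2L1 had 265.5 ± 8.96 TPM in Lane 4 and 146.9 ± 5.32 TPM in TruSeq libraries (0.89 ± 0.06), whereas BUB1B was lower (-0.21 ± 0.06), and BUB1 and TTK were not called. Among motors, KIF11 (0.87) and KIF23 (0.77) were higher, KIF20A (-0.26) was lower and KIF2C, a microtubule depolymerase, was not called (-0.08). KIF2C averaged 74.4 ± 1.85 TPM in Lane 4 and 80.9 ± 0.732 TPM in TruSeq libraries (SD), without overlap, and was called lower by limma on log2(TPM + 1) (-0.12, adjusted p = 0.008), without the filter on low counts (-0.12, edgeR adjusted p = 0.043) and against H1p16 alone (-0.16, edgeR adjusted p = 0.0084). The hyaluronan receptor and spindle gene HMMR (0.89), the cytokinesis genes ECT2 (0.51) and ANLN (0.48), TOP2A (0.42), which untangles sister DNA, and the spindle pole gene ASPM (0.41) were all higher. BIRC5 (0.40) and INCENP (0.23) were higher, and AURKB was not called. CCNB1 (0.18) was higher and CCNB2 (-0.71), CDK1 (-0.32) and CCNA2 (-0.31) were lower, as was the kinase PLK1 (-0.37). UBE2C was lower with counts (-0.36 ± 0.07), but averaged 411.1 ± 40.2 TPM in Lane 4 and 415.6 ± 18.7 TPM in TruSeq libraries.

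CENPA, CDC25C, AURKA, PRC1 and NUSAP1 were also not called between protocols. For CENPA the TruSeq groups differ among themselves: it was at 0.38 against H1p16 alone (edgeR adjusted p = 0.023) and at -0.31 against H1p43 alone (edgeR adjusted p = 0.035). CCNB1 was not called against H1p16 alone (edgeR adjusted p = 0.071). Against H1p16 alone, PRC1 was called higher (0.29, edgeR adjusted p = 0.0011) and TTK lower (-0.23, edgeR adjusted p = 0.0047). BUB1 was called lower against H1p43 alone (-0.30, edgeR adjusted p = 3.1e-06). Against the other TruSeq group PRC1, TTK and BUB1 were not called, at -0.09, 0.14 and 0.01. Among the other lists, Lane 4 was higher for 29 and lower for 21 of 60 further mitotic genes. It was higher for 9 and lower for 5 of 16 APC/C genes, and higher for 13 and lower for 2 of 17 condensin and cohesin genes. Of all genes tested, 34.3% were higher and 36.9% lower. The cohesin gene SMC3 averaged 480.9 ± 31.8 TPM in Lane 4 and 118.7 ± 3.52 TPM in TruSeq libraries (2.05 ± 0.06), CDC26 of the APC/C was at 1.38 and its partner UBE2S at -1.33. FOXM1 was lower in Lane 4 (-0.84 ± 0.05) and MYBL2 higher (0.34 ± 0.06). MKI67 was at 0.45 ± 0.05.

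The genes that rose most in Lane 4 were long or poor in G and C. The effective length that the authors' counts and TPM imply, relative to the median gene, was 3.45 for CENPF and 2.89 for CENPE, and 0.228 for PTTG1 and 0.551 for CDC20. Stretches of 150 bases of coding sequence, picked to have the G and C content of the whole, show the contrast; G and C are in capitals, and the sequences are from GENCODE 29 transcripts. DLGAP5 (chromosome 14) and CENPF (chromosome 1) rose most, and PTTG1 (chromosome 5) and CDC20 (chromosome 1) fell most.
DLGAP5: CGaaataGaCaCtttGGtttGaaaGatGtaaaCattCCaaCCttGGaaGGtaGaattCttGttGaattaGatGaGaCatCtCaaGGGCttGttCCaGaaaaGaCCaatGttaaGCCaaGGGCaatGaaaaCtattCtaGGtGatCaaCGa
CENPF: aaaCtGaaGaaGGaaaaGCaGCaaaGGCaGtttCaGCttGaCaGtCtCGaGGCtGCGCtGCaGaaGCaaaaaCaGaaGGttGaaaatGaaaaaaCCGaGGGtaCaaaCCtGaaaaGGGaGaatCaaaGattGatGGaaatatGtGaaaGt
PTTG1: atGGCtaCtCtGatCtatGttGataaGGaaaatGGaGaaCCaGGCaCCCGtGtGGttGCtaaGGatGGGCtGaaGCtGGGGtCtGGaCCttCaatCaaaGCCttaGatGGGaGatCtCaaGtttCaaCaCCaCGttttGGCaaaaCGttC
CDC20: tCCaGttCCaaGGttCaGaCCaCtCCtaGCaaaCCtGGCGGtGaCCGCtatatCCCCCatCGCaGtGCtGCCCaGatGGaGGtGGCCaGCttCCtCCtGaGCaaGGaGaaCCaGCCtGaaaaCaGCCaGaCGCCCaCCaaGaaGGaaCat
The stretches hold 57, 62, 71 and 86 G or C bases of 150, from coding sequences with 38.1%, 41%, 47.2% and 57.5% G and C. Across the 34 genes, the log2 fold change between protocols had r = -0.508 and rho = -0.592 with coding G and C content, and r = 0.586 and rho = 0.508 with log2 effective length. Across all genes with a value (12426 of 13827, 89.9%), the same were r = -0.496 and 0.318. Between H1p43 and H1p16, r across the 34 genes was 0.253 with G and C content and -0.119 with length. Genes are not independent replicates, and these values describe them without a test. DLGAP5 and MAD2L1 were high in Lane 4 without being long (0.999 and 0.471), and INCENP, with 61.5% G and C, was higher too. Mitotic genes as a group had a median coding G and C content of 43.5%, against 52.8% over 12534 genes.

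**Figure D3:**
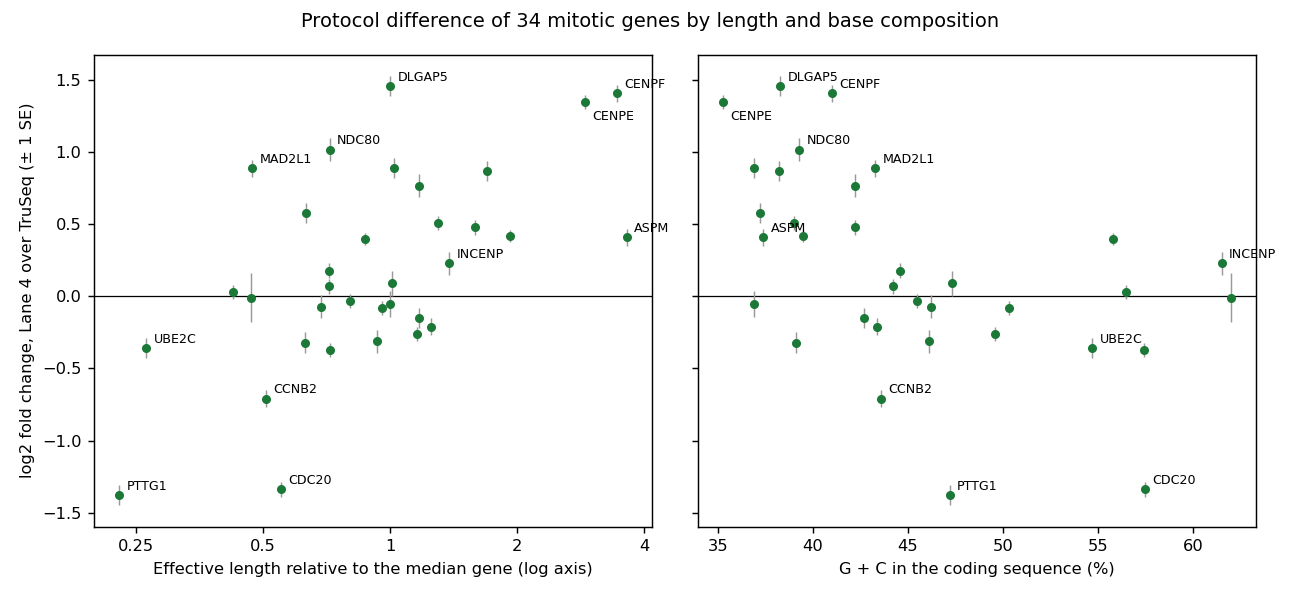
Log2 fold change of the 34 mitotic genes, Lane 4 over TruSeq (± 1 SE), against relative effective length (left, log axis) and coding G and C content (right). CENPE and CENPF stand at the upper right of the left panel and CDC20 and PTTG1 at the bottom; r is 0.586 on the left and -0.508 on the right.

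The third comparison asked whether the number of samples in a lane, and so the depth, moved mitotic genes within LM-Seq. By edgeR, 0 of the 34 were called in Lane 2, Lane 3 or Lane 4 against Lane 1 over shared library numbers, and 0 had an unadjusted p below 0.05. That test took same-numbered libraries as independent, though each deeper-lane library correlated best with the Lane 1 library of its own number. Over all genes, 0.0% were called in Lane 2, 0.0% in Lane 3 and 0.0161% in Lane 4, while 1.8%, 1.99% and 1.25% of genes had an unadjusted p below 0.05, and DESeq2 also called 0, 0 and 2 genes. Log2 fold changes of mitotic genes were between -0.07 and 0.05 in Lanes 2 and 3 and between -0.10 and 0.09 in Lane 4. With library number as a block, 26, 44 and 13 genes were called in the 3 lanes (0.257%, 0.405% and 0.105% of those tested), and again 0 mitotic genes. CENPF averaged 166.6 ± 16.7, 170.6 ± 15.8, 169.6 ± 14.9 and 168.7 ± 15.6 TPM in Lanes 1 to 4 over the 6 numbers that all lanes hold (SD). The spread also differed between lanes, and depth and lane cannot be told apart: the median coefficient of variation of mitotic genes over those 6 numbers was 10.2% in Lane 1, 7.81% in Lane 2, 6.68% in Lane 3 and 6.45% in Lane 4. CENPA, the least abundant, had an SD of 11.5 TPM around 28.3 TPM in Lane 1 and of 4.72 TPM around 27.1 TPM in Lane 4.

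Differences between libraries of the same protocol repeated from lane to lane. For each gene, log2 CPM in Lane 1 was correlated with that in Lane 2 over the 48 numbers both lanes hold, with a one-sided permutation test of library numbers. Of the 34 genes, 31 passed at an adjusted p below 0.05, against 80% of 9287 genes tested, and the median r was 0.449 against 0.398. Whether a number is a single library loaded on several lanes is not stated. CENPF, the mitotic gene with the highest mean count and so the lowest counting error, repeated best, with r = 0.955 and rho = 0.938. Both had permutation p = 1e-05, the smallest that 100000 resamples give (adjusted p = 6.5e-05 for r). Without the 2 libraries farthest from its median, r was 0.916. INCENP followed with r = 0.895 and rho = 0.832, and r = 0.836 without its 2 farthest libraries. CENPE (0.810), DLGAP5 (0.708), TOP2A (0.693) and MAD2L1 (0.679) came next. The 3 that missed the threshold were AURKA (r = 0.252), KIF20A (0.230) and BIRC5 (0.222). Without Lane1_38846, Lane1_38859 and their namesakes, 28 of the genes passed, against 72.5% of all genes. With Lane 3 in place of Lane 2, over 24 shared numbers, 22 passed, against 63.1% of all genes.

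The spread of CENPF and INCENP in Lane 1 was also the largest relative to counting noise. The chi-square per degree of freedom over the 95 libraries, near 1 for counting alone, was 7.26 for CENPF, 6.94 for INCENP and 3.51 for CENPE, and 1.10 for AURKA, the lowest. Its median was 1.68 over mitotic genes and 1.58 over 7284 genes of at least the same count. At an equal relative spread this ratio is larger for genes with more counts. CENPF had the highest mean count, 896.5, and an SD of log2 CPM of 0.137. That SD was 0.31 for INCENP, at 129.1 counts, and 0.369 for CENPA, at 21.9 counts. INCENP had its lowest value, 29.8 TPM, in Lane1_38846 and its highest, 110.6 TPM, in Lane1_38859, around a median of 57 TPM. In Lane 2 the same numbers had 32.7 and 119.8 TPM. CENPF also had its lowest and highest values there, 97.7 and 201.1 TPM, and in Lane 2 it had 101.3 and 221.3 TPM. MAD2L1 ran the other way, with 362.2 TPM in Lane1_38846 and 198.7 TPM in Lane1_38859, around a median of 265.2 TPM.

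Covariation over Lane 1 was measured against CENPF, the mitotic gene with the highest mean count, so that its counting error was smallest. Of the other 33 genes, 13 correlated positively and 5 negatively with CENPF (two-sided permutation test over 95 libraries, adjusted p below 0.05 over 9286 genes), against 12.9% and 11.1% of all genes. CENPE had r = 0.648 and rho = 0.593 (permutation p = 1e-05 for both, the smallest possible; adjusted p = 0.00018), and r = 0.572 without Lane1_38846 and Lane1_38859, the 2 libraries farthest from the CENPF median. INCENP had r = 0.606 and rho = 0.518, and r = 0.498 without those libraries. DLGAP5 had r = 0.464 and rho = 0.534, and r = 0.457 without them. KIF23 (0.467), ASPM (0.467), HMMR (0.395), PRC1 (0.390), TOP2A (0.384), KIF20A (0.374), BUB1B (0.358), KIF2C (0.332), KIF11 (0.273) and NUF2 (0.264) were also positive. BUB1B, KIF11 and NUF2 no longer passed without the 2 libraries, at 0.222, 0.226 and 0.240, while NDC80, not called over all libraries (0.255), passed without them (0.321). ASPM had r = 0.716 over the 48 numbers that Lane 2 shares and r = 0.0743 over the other 47, so its relation did not hold within both.

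The negative correlations with CENPF were fewer. CCNA2 had r = -0.443 and rho = -0.454 (permutation p = 2e-05 and 1e-05; adjusted p = 0.0003 for r), and r = -0.450 without the 2 libraries. It was at -0.522 over the 47 numbers absent from Lane 2 and at -0.380 over the other 48. ECT2, which starts the cleavage furrow, had r = -0.320 and rho = -0.319, and r = -0.308 without the 2 libraries. CDK1 (-0.334), CDC20 (-0.271) and MAD2L1 (-0.335) no longer passed without the 2 libraries, at -0.206, -0.232 and -0.0721. For MAD2L1 rho was -0.0649, and its relation rests on those libraries. Without them 11 genes were positive and 2 negative, against 10.7% and 8.34% of all genes. On the TPM scale 9 were positive and 2 negative, beside 1454 of 9286 genes called in either direction.

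**Figure D4:**
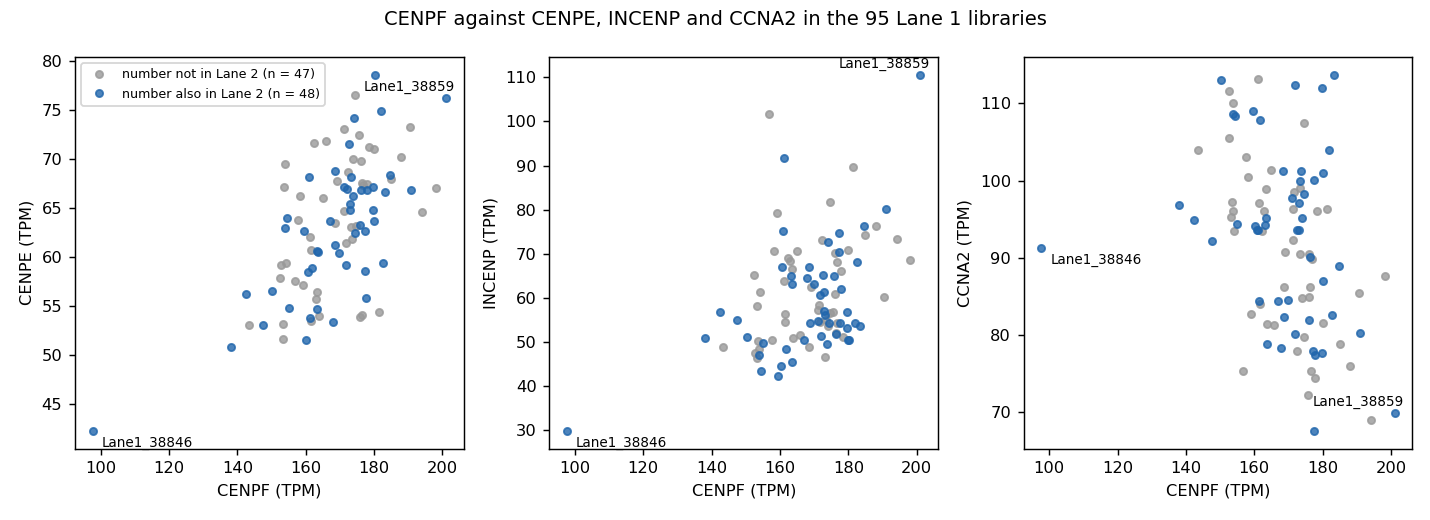
TPM of CENPE, INCENP and CCNA2 (vertical axes) against CENPF (horizontal axes) in the 95 Lane 1 libraries, coloured by whether Lane 2 holds the same number. Lane1_38846 has the lowest CENPF, 97.7 TPM, and Lane1_38859 the highest, 201.1 TPM.

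Most pairs of the 34 genes were weakly correlated over Lane 1. The 561 pairs had a median r of 0.0182, with 5th and 95th percentiles of -0.252 and 0.319. Without the 2 libraries these percentiles were -0.221 and 0.277. Pairs of genes of at least the lowest mitotic count had a median of -0.000959 and percentiles of -0.225 and 0.228. Counting noise draws r toward 0, and even the same mitotic gene, in Lane 1 against Lane 2, had a median r of 0.449. The highest values came from pairs among CENPF, CENPE, INCENP, KIF23, ASPM, DLGAP5, HMMR, PRC1, TOP2A and BUB1B. INCENP and BUB1B were at 0.474, and CENPE and DLGAP5 at 0.480. These genes were not a closed block: ASPM and PRC1 had -0.031 and PRC1 and TOP2A 0.056. CENPE also had 0.401 with NDC80, which is not among them. CCNA2, CDK1, CDC20, UBE2C and ECT2 had negative values with the genes of those highest pairs, from CENPF to BUB1B. Pairs measured across lanes (a gene in Lane 1 against its partner in Lane 2) kept the sign of the leading pairs, but not always their size. Over the 48 shared numbers, CENPE and CENPF had r = 0.729 and 0.728, beside 0.648 over Lane 1. INCENP and MAD2L1 had -0.612 and -0.514, beside -0.392 over Lane 1. However, CENPF, INCENP and MAD2L1 each had their lowest and highest values in the 2 libraries in Lane 1, and in their namesakes in Lane 2. These libraries are among the shared numbers, and no cross-lane value was computed without them. How far these pairs rest on the 2 libraries was not tested. Other pairs were weaker: CCNA2 and CENPF had -0.324 and -0.307, beside -0.443, CENPF and DLGAP5 had 0.265 and 0.436, beside 0.464, and CDC20 and CENPE had -0.308 and -0.103, beside -0.373. These correlations are descriptions over libraries that share a lane.

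**Figure D5:**
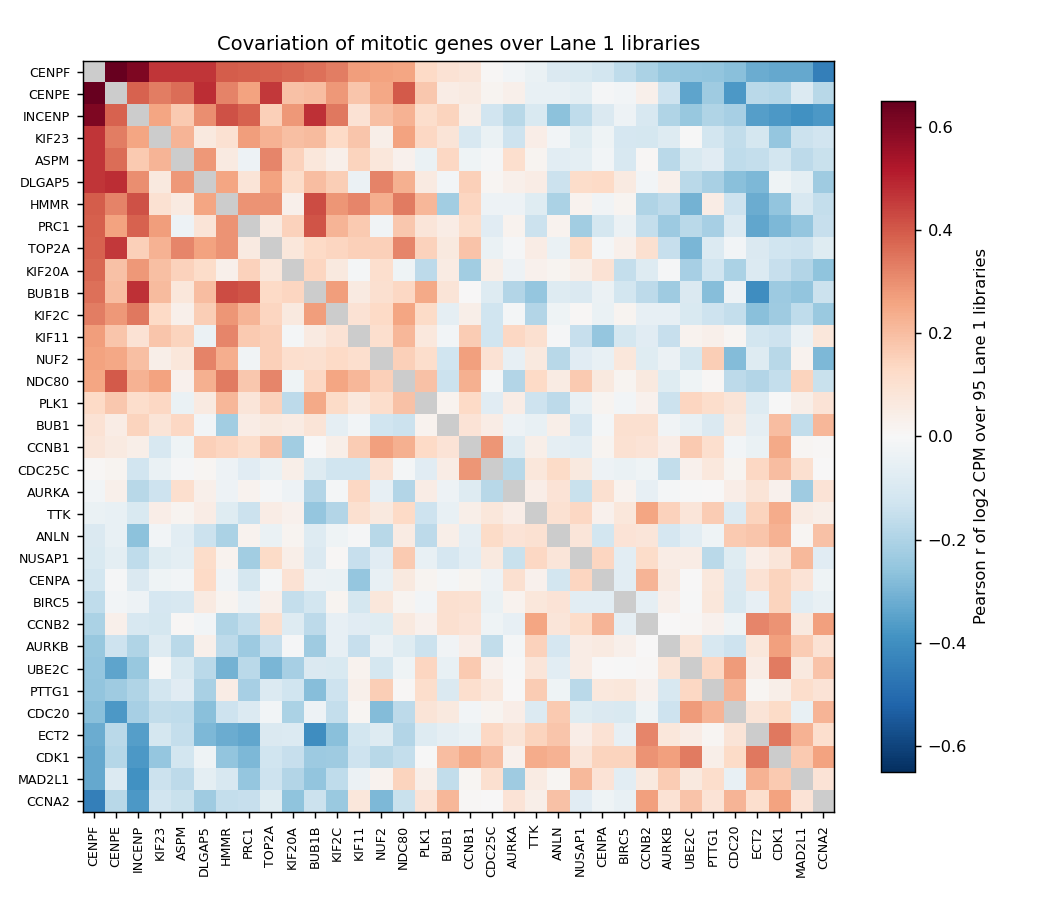
Pearson r of log2 CPM for every pair of mitotic genes over the 95 Lane 1 libraries, ordered by r with CENPF. The upper left holds CENPF with CENPE (0.648) and INCENP (0.606), and the lowest value, CCNA2 with CENPF, is -0.443.

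The 5 genes whose pattern was most like that of CENPF lay outside the 34, though MYH10, a myosin of the cleavage furrow, and TPR, a nuclear pore protein that binds checkpoint proteins, also act in mitosis. By r over the 95 libraries they were MYH10 (r = 0.835, rho = 0.720), MDN1 (0.795, 0.665), YLPM1 (0.772, 0.704), GOLGA4 (0.772, 0.708) and TPR (0.763, 0.663), each with permutation p = 1e-05. All 5 had long transcripts, with effective lengths of 2.57, 5.84, 2.73, 2.64 and 3.25 relative to the median gene. Among mitotic genes, r with CENPF had a correlation of 0.648 with log2 effective length, against 0.119 over 8512 genes, and of -0.250 with coding G and C content, against -0.0896. The part of transcript length in the covariation was not tested. CENPF in log2 CPM, a measure already scaled by library total, had r = -0.0230 with that total (permutation p = 0.825). The rho was -0.179 (permutation p = 0.0838), and r was -0.0654 without the 2 libraries farthest from the median total. Whether depth had a part in the covariation was not tested.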

How the data were processed

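RNA was sequenced in 179 libraries of H1 cells, grouped by their titles. The submitters' processing notes name CASAVA 1.8.2, Bowtie 0.12.8, RSEM 1.2.3 and build hg19. For 19084 genes the authors deposited expected counts, which RSEM estimates, and TPM. TPM divides by transcript length and by library total, so a shift in a few abundant genes moves the TPM of all others. Reads that fit several genes are shared out by RSEM's model, and the sources used here do not tell whether strand was used in counting.

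The rounded expected counts went into edgeR 4.0.16's quasi-likelihood test (R 4.3.3; filterByExpr, TMM, no covariates), adjusted by Benjamini-Hochberg over all genes tested and called below 0.05. H1p43 was compared with H1p16, Lane 4 with TruSeq, and each deeper lane with Lane 1 over shared library numbers. The alternatives tried were RLE size factors, DESeq2 1.42.0, no low-count filter, limma 3.58.1 on log2(TPM + 1) and log2(TPM + 0.1) for genes averaging at least 1 TPM, other groups of libraries, and omission of each TruSeq or Lane 4 replicate. Correlations used log2 CPM (TMM, prior count 2) of genes averaging at least 10 counts in Lane 1, with 100000 permutations of libraries. Coding G and C content came from GENCODE 29 transcripts matched by RefSeq accession, and promoters from RefSeq (GRCh38.p14).

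Libraries of the same number shared deviations from their lane means, with correlations against Lane 1 between 0.160 and 0.644 for Lane 2, between 0.225 and 0.600 for Lane 3, and between 0.385 and 0.467 for Lane 4. Blocked results are therefore given. Libraries of 1 group differed by more than counting noise, and none was counted as a duplicate. On simulated counts for H1p43 against H1p16 (14574 genes), 94 of 100 genes changed 2-fold were recovered, and 88 of 100 changed 1.5-fold. For Lane 4 against TruSeq (13827 genes), 97 and 71 were recovered, and for Lane 4 against Lane 1 (12419 genes), 77 and 59. Of unchanged genes, 10 of 14374, 7 of 13627 and 6 of 12219 were called. The simulation gave all genes 1 dispersion and changed few of them, whereas 71.8% were called between H1p43 and H1p16. It held no change below 1.5-fold, so it does not bear on the smaller differences of most mitotic genes there.

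The 34 genes and the gene lists were chosen with earlier results of these data known. All 34 could be named, with up to 3 called genes of lowest adjusted p per list, FOXM1, MYBL2, MKI67, WEE1, PKMYT1, POU5F1, NANOG, SOX2 and the 5 genes most correlated with CENPF. The removal of Lane1_38846, alone and with Lane1_38859, was chosen after seeing the data.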

Additional observations from a re-analysis of the deposited data

How the results depend on the processing

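Between H1p43 and H1p16, the 14 higher and 15 lower mitotic genes became 9 higher with DESeq2, and 6 lower with limma on log2(TPM + 1) or log2(TPM + 0.1). Leaving out 1 replicate gave 9 to 13 higher and 12 to 16 lower, the lowest count of higher genes coming without H1p16 replicate 2 or H1p43 replicate 2. Over all genes, those fits called 9828 to 10470 in either direction. On log2(TPM + 1) the sign turned for CDC25C (0.0012), AURKB (0.09), CDC20 (0.10), CENPF (0.06), KIF20A (0.0038), ANLN (0.05) and ECT2 (0.03). On log2(TPM + 0.1) the same genes were at 0.0013, 0.09, 0.10, 0.06, 0.0038, 0.05 and 0.04. The cause was not tested. Same-numbered libraries of H1p43 and H1p16 correlated at 0.0234 to 0.138, and 2 of 3 correlated best with their own number, so the numbers were not taken as pairs; a replicate block gave 14 higher and 16 lower. Of the 34 genes, 15 kept direction and side of the threshold under every alternative run.

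Between Lane 4 and TruSeq, 16 or 17 genes were higher and 9 to 12 lower under every alternative, and 25 of 34 kept direction and side of the threshold. The sign turned for AURKB without the filter (-0.0037), on both TPM scales (-0.00092 and -0.00094) and without Lane4_38874 (-0.01). It turned for CENPA on both TPM scales (0.02), against H1p16 alone (0.38), with Lane 3 in place of Lane 4 (0.16) and without Lane4_38873 (0.05); leaving out 1 Lane 4 replicate at a time gave CENPA values of -0.08 to 0.05. It also turned for BUB1 (0.01) and NUSAP1 (0.03) against H1p16 alone, and for TTK (0.14) and PRC1 (-0.09) against H1p43 alone. Between lanes, no filter gave 1 gene in Lane 2, and the replicate block gave 26, 44 and 13 genes in Lanes 2, 3 and 4; the block changed no other call of a mitotic gene.

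Of the genes correlated with CENPF over Lane 1 (2226 of 9286 tested, with 13 mitotic genes positive and 5 negative), log2(TPM + 1) left 1454, with 9 positive and 2 negative. The 48 numbers in Lane 2 gave 1213 genes, 7 positive and 1 negative, and the other 47 gave 1422, 7 and 1, with fewer libraries in each; MAD2L1 turned to 0.0253 in the 47. Without the 2 farthest libraries 2 were negative, and without Lane1_38846 alone 3. Limited to genes averaging at least 50 counts, 1898 genes were called, and 13 mitotic genes were positive and 7 negative. Counts in Lane 1 were low for the weakest genes, at a mean of 21.9 for CENPA, and the part of depth was not tested.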
